A study of Mus musculus with 12 samples.

Results

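Genes that restrain signalling through the ERK kinases, 10 in all, were followed in 10T1/2 cells: the dual specificity phosphatase genes Dusp1, Dusp4, Dusp5 and Dusp6, the Sprouty genes Spry1, Spry2 and Spry4, and the Spred genes Spred1, Spred2 and Spred3. They were taken from the table of gene counts by symbol, and all 10 were found among its 56748 genes and were among the 16465 genes that passed the filter on low counts. The cells are wild type C3H10T1/2 (CH310T1/2 in the labels), an established mouse mesenchymal progenitor line. In all groups they were starved of serum in suspension for 1 h and then left for 18 h on gels of 12 kPa stiffness that carried 0.05 mg/mL collagen I. The labels give 0.5% FBS for the suspension, whereas the methods of the paper give serum-free medium there and low serum on the gels. The methods also give overnight starvation in 0.5% FBS before the cells were detached. The collagen was polymerized alone (col1) or with 30 nM recombinant aortic carboxypeptidase-like protein (col1-ACLP). In the third group (col1-ACLP+SB) the collagen was polymerized with 30 nM ACLP, and SB431542, an inhibitor of the TGFβ receptor kinase ALK5, was added when the cells were seeded. Each group had 4 libraries of poly(A) RNA, which the study describes as biological replicates. No group received the inhibitor on collagen alone, so an effect of SB431542 without ACLP cannot be told apart from its effect on ACLP.

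Growth factor receptors and integrins activate RAS, which passes the signal through RAF and MEK to the ERK kinases. ERK then drives transcription of its own inhibitors, so that levels of several of these genes are widely used as a readout of the pathway. DUSP proteins remove phosphate from MAP kinases: DUSP1 and DUSP4 are nuclear and act on several MAP kinases, DUSP5 is a nuclear phosphatase for ERK, and DUSP6 is a cytoplasmic phosphatase for ERK. Sprouty proteins act upstream, between receptors and RAF, and Spred proteins bring the RAS inhibitor neurofibromin to the membrane. Here only RNA was measured, and neither ERK phosphorylation nor protein was examined in these data.

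The promoters of the 3 members that passed the test between col1-ACLP and col1 are shown, as the 250 bases before the start of the canonical transcript on GRCm39 (GENCODE M39), 5′ to 3′ on the strand of the gene. Capitals mark the matches to the motifs searched on both strands: the ETS core CCGGAA, the CRE TGACGTCA, the AP-1 site TGANTCA, the EGR site GCGTGGGCG and the CArG box, which serum response factor binds.
Spry2: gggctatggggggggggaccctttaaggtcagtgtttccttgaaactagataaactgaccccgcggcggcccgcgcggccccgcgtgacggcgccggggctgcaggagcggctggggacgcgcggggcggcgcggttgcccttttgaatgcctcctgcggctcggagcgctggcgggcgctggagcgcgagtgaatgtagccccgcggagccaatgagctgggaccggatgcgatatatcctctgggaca
Dusp5: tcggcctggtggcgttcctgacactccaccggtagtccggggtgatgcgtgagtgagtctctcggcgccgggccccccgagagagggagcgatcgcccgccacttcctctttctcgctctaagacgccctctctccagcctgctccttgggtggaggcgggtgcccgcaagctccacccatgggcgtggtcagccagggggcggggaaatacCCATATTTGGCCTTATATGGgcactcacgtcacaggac
Dusp6: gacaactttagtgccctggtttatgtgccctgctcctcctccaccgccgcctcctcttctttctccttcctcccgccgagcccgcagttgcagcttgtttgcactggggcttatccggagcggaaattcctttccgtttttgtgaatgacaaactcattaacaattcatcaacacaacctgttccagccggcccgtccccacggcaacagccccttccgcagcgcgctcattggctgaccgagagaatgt
The Spry2 window is chr14:106134793-106135042 on the minus strand, the Dusp5 window chr19:53517282-53517531 on the plus strand and the Dusp6 window chr10:99098818-99099067 on the plus strand. The start used lies 539 bases upstream of the start of Spry2 in the count table, 8 bases upstream for Dusp5 and 25 bases upstream for Dusp6. None of the 3 windows overlapped an exon of a protein-coding gene. The Dusp5 window held 2 CArG boxes side by side, from 38 to 29 and from 28 to 19 bases before the start. A CArG box was present in 1.4% of the 21751 windows of the same length before protein-coding genes. The Spry2 and Dusp6 windows held no match, which says only that these letters are not in these windows. Among the other members, Dusp1 had a CRE from 96 to 89 bases before its start and Spry4 an ETS core from 85 to 80 bases before its start. The start used for Dusp1 lies inside its span in the count table, and its window overlaps an exon of Dusp1 itself. A CRE was found in 1.7%, an ETS core in 12.4%, an AP-1 site in 6.17% and an EGR site in 0.547% of all windows, and no member window held an AP-1 or EGR site. These matches describe the sequence and are not measured binding sites.

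The libraries held from 29246154 to 52201922 counts, and all 7 mesenchymal markers (Col1a1, Col1a2, Pdgfra, Pdgfrb, Thy1, Vim and Fn1) were above 1 CPM in every library. Epcam, Adgre1, Myod1 and Myog were at 0 in all 12. The summed level of the other marker lists ran from 2.34 to 4.84 CPM for epithelial, 4.30 to 9.85 CPM for endothelial, 6.17 to 11.8 CPM for leukocyte, 0.342 to 2.22 CPM for adipocyte and 0.651 to 2.65 CPM for skeletal muscle genes. Replicate 2 of col1 stood apart from the other libraries on the leading principal component, at -86.7 against -11.1 to 20.6, and calls of the genes named below that were lost without it are given with each gene. Mitochondrial genes took 2.39 to 2.98% of counts on col1, 2.00 to 2.21% on col1-ACLP and 2.10 to 2.88% on col1-ACLP+SB. No col1-ACLP library reached the lowest col1 library in this share, the same separation as for Spry2 and Dusp5 below, and its part in those results was not tested.

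Expression per length, as TPM (counts scaled by gene length and by library, from the lengths of the count table), placed the members over a wide range on col1. Dusp1 was highest at 343 ± 51.2 TPM (SD, n = 4 here and for the levels that follow), then Spry2 at 115 ± 8.91 TPM, Spred1 at 58.4 ± 2.92 TPM and Dusp6 at 37.6 ± 8.05 TPM. Each of these 4 was separated from its neighbours in every library. Spred2 at 22.5 ± 2.98 TPM and Dusp5 at 19.9 ± 2.46 TPM overlapped. Spred3 at 6.99 ± 1.49 TPM overlapped Dusp4 at 4.46 ± 1.25 TPM, which overlapped Spry1 at 2.48 ± 1.21 TPM. Spry4 was lowest at 0.588 ± 0.176 TPM. The most abundant Sprouty was thus Spry2 and the most abundant Spred was Spred1. The group means kept this order in both groups with ACLP, but there the ranges of Spry2 and Spred1 overlapped, with Spry2 at 66.3 ± 10.2 and 74.6 ± 13.4 TPM and Spred1 at 56.6 ± 2.92 and 55.8 ± 3.92 TPM. The ranges of Dusp6 and Spred2 overlapped on col1-ACLP.

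**Figure D1:**
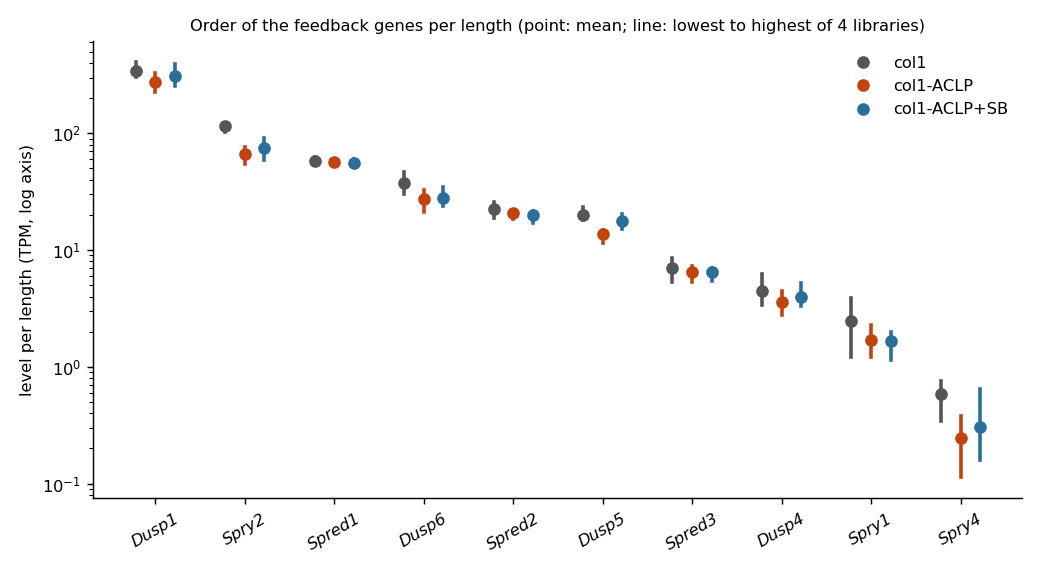
Mean level per length (TPM, log axis) of the 10 feedback genes in the 3 groups, with lines from the lowest to the highest of 4 libraries. Dusp1 is highest and Spry4 lowest in each group, and Spry2 stands clear of Spred1 on col1 (115 against 58.4 TPM) but overlaps it in both groups with ACLP.

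To ask how collagen-bound ACLP altered the feedback genes, col1-ACLP was compared with col1. Spry2 fell by 42.1%, Dusp5 fell by 30.3% and Dusp6 fell by 26.9%, and no member rose. These 3 of 10 members passed an adjusted p of 0.05 in edgeR's quasi-likelihood test, where 8.41% of all tested genes were lower and 9.52% higher. With library size alone in place of TMM scaling, 1865 of all tested genes were lower and 1159 higher (1385 and 1568 with TMM), no member changed direction, and Dusp1 also passed (adjusted p = 0.0246, edgeR). The fitted log2 fold change (log2FC) was below 0 for all 10 members, with a median of -0.39, beside 51.5% of all tested genes below 0 and a median of -0.01. When a log2FC past 0.58 was also required, Spry2 was the 1 member lower, against 2.36% of all tested genes. Since whole cultures were sequenced, fewer cells with a transcript and less transcript per cell cannot be told apart.

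Spry2 (ENSMUSG00000022114, chr14:106129381-106134253, minus strand) gave the most abundant Sprouty RNA. Its level was 55.5, 66.1, 60.1 and 64.9 CPM (counts scaled to library size, with TMM factors for composition) in the 4 col1 libraries and 33.6, 29.1, 40.6 and 39.4 CPM in the 4 col1-ACLP libraries. The groups did not overlap, a separation in the lower direction found in 10.3% of all tested genes. The log2FC was -0.79 (standard error, SE, 0.106; adjusted p = 3.34e-06, edgeR with Benjamini-Hochberg adjustment over all genes tested), with a 95% interval from -1.01 to -0.57. With each library left out in turn and under the other alternatives it ranged from -0.86 to -0.71 and passed the test in all 21.

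Dusp5 (ENSMUSG00000034765, chr19:53517540-53530862, plus strand) stood at 11.5, 15.1, 11.7 and 12.3 CPM on col1 and at 9.23, 7.35, 9.29 and 9.46 CPM on col1-ACLP. Every col1-ACLP library lay below every col1 library, as was found in 10.3% of all tested genes. The log2FC was -0.52 (SE 0.134, adjusted p = 0.00629 in the same edgeR test), smaller in size than 0.58. Its counts, from 266 to 571 per library in these 2 groups, were well above the lowest members.

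Dusp6 (ENSMUSG00000019960, chr10:99099093-99103351, plus strand) had 25.6, 34.1, 24.0 and 37.5 on col1 and 17.4, 19.7, 26.4 and 25.5 CPM on col1-ACLP. Here the groups overlapped, since replicates 1 and 3 of col1 lay at the height of replicates 3 and 4 of col1-ACLP. The log2FC was -0.45 (SE 0.141, adjusted p = 0.0259 in the same edgeR test). This call was lost without col1 replicate 2 (adjusted p = 0.0824 in edgeR), col1 replicate 4 (0.139), col1-ACLP replicate 1 (0.12) or col1-ACLP replicate 2 (0.0865), and in DESeq2 (0.0841).

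Dusp1 (ENSMUSG00000024190, chr17:26724564-26781102, minus strand), the most abundant member and an immediate early gene itself, had 259, 351, 254 and 307 on col1 and 210, 192, 256 and 280.0 CPM on col1-ACLP. The groups overlapped, with a log2FC of -0.32 (SE 0.119, adjusted p = 0.0646 in the same edgeR test). The call depended on the setting, and the adjusted p was under 0.05 in 8 of 21 alternatives, among them the fits without col1 replicate 1 (0.0466), col1 replicate 3 (0.0433), col1-ACLP replicate 4 (0.0178) or col1-ACLP+SB replicate 2 (0.0247). The annotation of Dusp1 shares 640 bases with Ergic1 on the other strand, and the strand setting of the counting is not given in the sources used here, so some reads of Ergic1 may be held in its count. Dusp4 (ENSMUSG00000031530, chr8:35274451-35287048, plus strand) had 2.40, 3.10, 2.70 and 4.37 on col1 and 1.99, 3.15, 2.24 and 2.69 CPM on col1-ACLP, with a log2FC of -0.32 and a 95% interval from -0.85 to 0.21.

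The other 2 Sprouty genes were measured at low counts, and their changes could not be resolved. Spry1 (ENSMUSG00000037211, chr3:37694096-37698747, plus strand) had 26 to 112 counts in the 12 libraries, with 2.92, 0.927, 1.31 and 2.25 on col1 and 1.44, 0.912, 1.00 and 1.70 CPM on col1-ACLP. Its log2FC was -0.56, with a 95% interval from -1.36 to 0.24 (adjusted p = 0.387, edgeR). Spry4 (ENSMUSG00000024427), a target of ERK signalling in many cell types, had only 5 to 36 counts per library. It stood at 0.940, 0.794, 0.728 and 0.418 CPM on col1 and at 0.183, 0.138, 0.468 and 0.425 CPM on col1-ACLP. The ranges met between replicate 4 of col1 and replicates 3 and 4 of col1-ACLP. The log2FC of Spry4 was the lowest of the 10, -1.25, but its 95% interval ran from -2.64 to 0.14 (adjusted p = 0.237, edgeR).

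The 3 Spred genes had the estimates closest to 0, and the intervals were narrow for Spred1 and Spred2. Spred1 (ENSMUSG00000027351, chr2:116951855-117012760, plus strand) had 103, 97.7, 98.7 and 108 on col1 and 93.0, 103, 99.6 and 100.6 CPM on col1-ACLP. The log2FC was -0.04, with a 95% interval from -0.16 to 0.08, so that a fall as large as that of Spry2 lies outside it. Spred2 (ENSMUSG00000045671, chr11:19874375-19974026, plus strand) ranged from 22.6 to 30.4 CPM on col1 and from 21.8 to 26.5 CPM on col1-ACLP, with a log2FC of -0.10 and an interval from -0.30 to 0.11. Spred3 (ENSMUSG00000037239, chr7:28858254-28869836, minus strand), which shares 202 bases with Ggn on the other strand, ranged from 8.55 to 13.8 CPM and from 8.71 to 11.7 CPM, with a log2FC of -0.11 and an interval from -0.42 to 0.20. The adjusted p in edgeR was 0.719 for Spred1, 0.598 for Spred2 and 0.702 for Spred3.

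**Figure D2:**
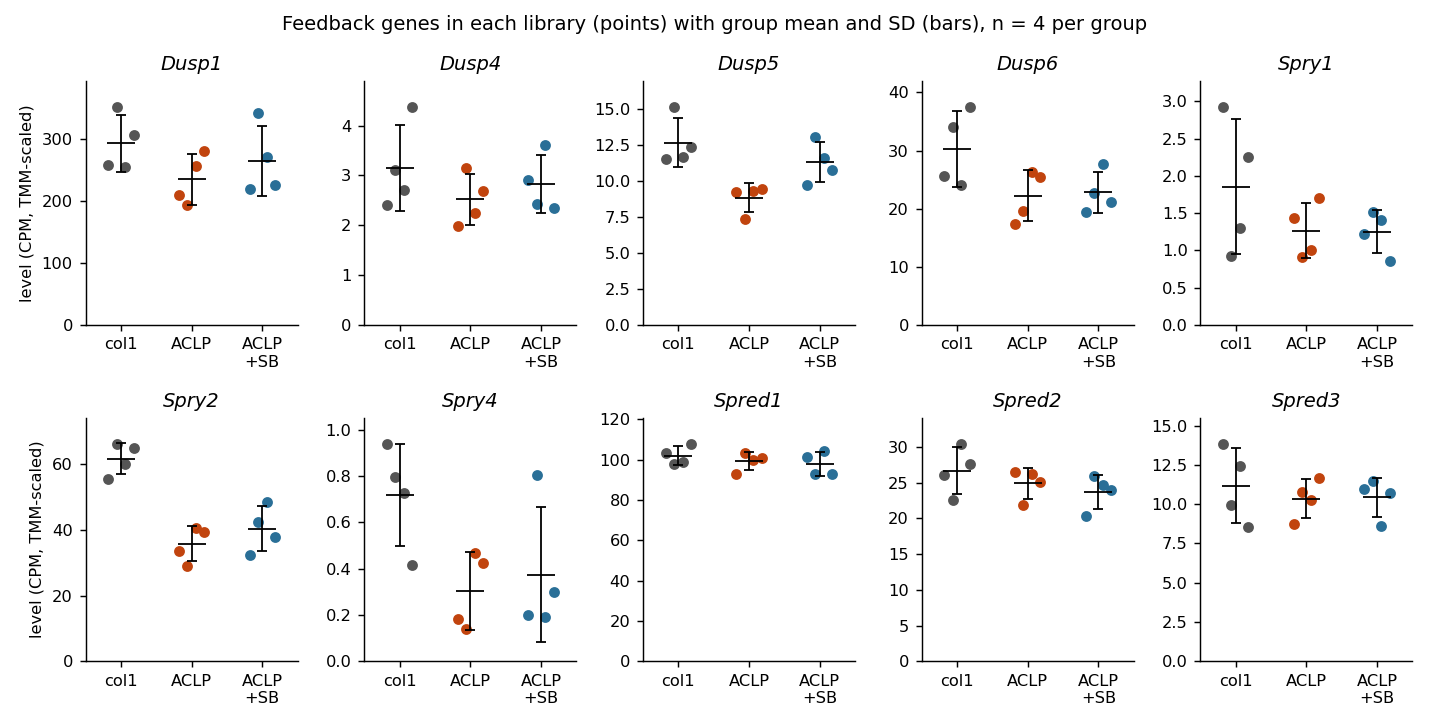
Level of each feedback gene (CPM with TMM scaling, each axis from 0) in the 12 libraries (points), with the mean and SD of 4 libraries per group (bars). The col1-ACLP points of Spry2 (29.1 to 40.6 CPM) and Dusp5 (7.35 to 9.46 CPM) all lie below the col1 points, while the Spred genes overlap in all groups.

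To see which levels differed from col1 when ALK5 was inhibited, col1-ACLP+SB was compared with col1. Spry2 was the 1 member that passed the test, against 4.54% of all tested genes lower and 4.6% higher. The fitted log2FC was again below 0 for all 10 members (median -0.17), beside 49.1% of all tested genes below 0 (median 0.0046). This comparison shares the 4 col1 libraries with the one above, so the directions are not independent. Spry2 had 32.4, 42.2, 48.5 and 37.9 CPM on col1-ACLP+SB, and all 4 libraries lay below the lowest col1 library, a separation found in 6.32% of all tested genes. Its log2FC was -0.61 (SE 0.105, adjusted p = 0.00018, edgeR), past 0.58 in size as 1.01% of tested genes were in the lower direction. The 95% interval ran from -0.83 to -0.40. Without col1 replicate 2 (-0.577) or col1-ACLP+SB replicate 1 (-0.52) the size was no longer past 0.58, while the test was passed in all 21 alternatives by its adjusted p. Dusp6 had 19.5, 22.8, 27.7 and 21.2 CPM, overlapping col1 through replicate 3, with a log2FC of -0.41 and an adjusted p of 0.0717 in edgeR. It passed without col1 replicate 1 (adjusted p = 0.0454 in edgeR), col1 replicate 3 (0.0291) or col1-ACLP+SB replicate 3 (0.0278), and with no filter on low counts (0.000786). Dusp5 had 9.74, 13.1, 11.6 and 10.8 CPM, within or near the col1 range, with a log2FC of -0.17 (95% interval -0.44 to 0.11). Dusp1 had 219, 343, 270.3 and 226 CPM and a log2FC of -0.15 (95% interval -0.39 to 0.10). Of the low genes, Spry4 had 0.199, 0.806, 0.193 and 0.298 CPM, with 3 libraries below all of col1 and replicate 2 within its range. The log2FC was -0.96 for Spry4, -0.57 for Spry1 and -0.15 for Dusp4, and the intervals of all 3 included 0. For the Spred genes it was -0.06, -0.17 and -0.10 in the order Spred1, Spred2 and Spred3.

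The effect of the inhibitor in cells on ACLP was tested directly by comparing col1-ACLP+SB with col1-ACLP. No member passed the test in edgeR, and DESeq2 and limma-voom also called none. In edgeR 1 member of 10 had an unadjusted p under 0.05, beside 2111 of the 16465 tested genes. By adjusted p, 0.905% of all tested genes were lower and 0.571% higher. With library size alone in place of TMM scaling this split turned, to 109 genes lower and 157 higher (149 and 94 with TMM), and no member passed. Dusp5 was higher in every col1-ACLP+SB library (9.74 to 13.1 CPM) than in every col1-ACLP library (7.35 to 9.46 CPM), a separation in either direction found in 8.17% of all tested genes. Its log2FC was 0.36, with a 95% interval from 0.08 to 0.63 and an adjusted p of 0.219 in edgeR. For Spry2 the log2FC was 0.18, with an interval from -0.04 to 0.40 (adjusted p = 0.545, edgeR), and the groups overlapped. Dusp6 differed by 0.04 (interval -0.25 to 0.34) and Dusp1 by 0.17 (interval -0.07 to 0.42). That Dusp5 and Dusp6 passed the test against col1 on ACLP and not on ACLP with SB431542 does not show that they responded to the inhibitor, since the difference between these groups did not pass.

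**Figure D3:**
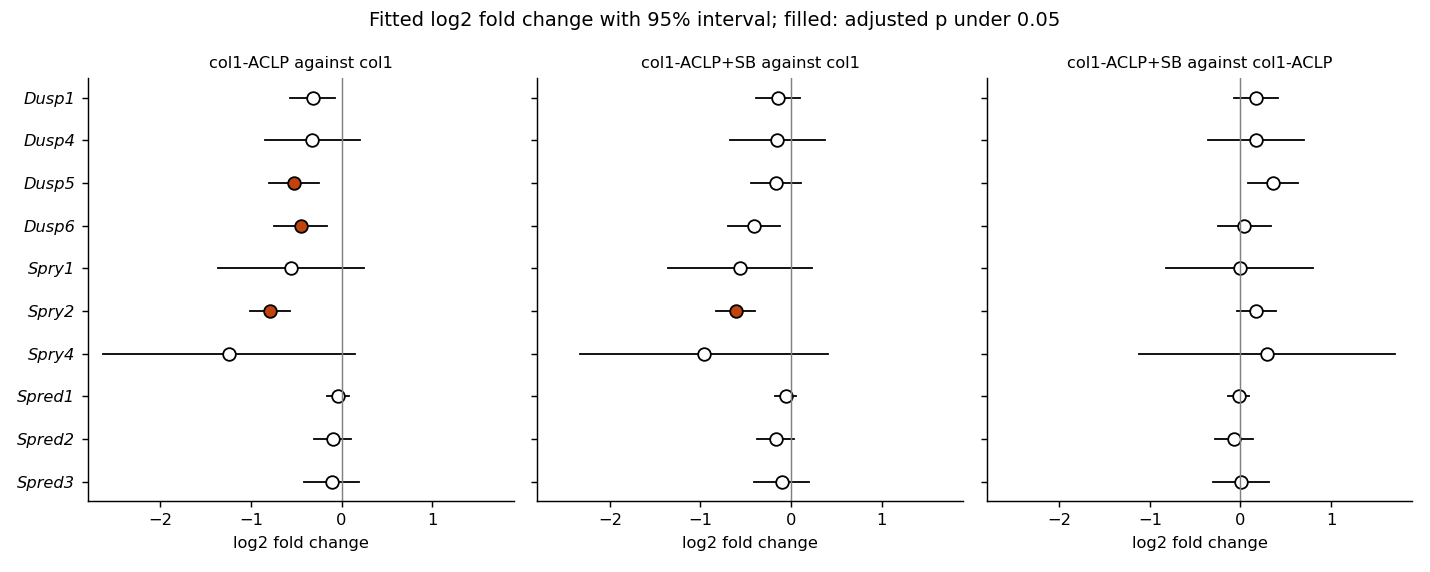
Fitted log2FC of each feedback gene in the 3 comparisons (points) with 95% intervals (lines), filled where the adjusted p of edgeR's test was under 0.05. Filled points are Spry2 (-0.79), Dusp5 (-0.52) and Dusp6 (-0.45) on col1-ACLP and Spry2 (-0.61) on col1-ACLP+SB, each against col1, and Spry4 has the widest interval.

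Other genes that ERK signalling induces were counted from lists chosen with earlier results of these data known. The counts therefore describe these data and are not independent evidence. Of 8 immediate early genes, 6 fell on col1-ACLP and none rose, with a median log2FC of -0.46. For these and the lists that follow, the share over all tested genes was 8.41% lower and 9.52% higher on col1-ACLP. Egr3 fell from 48.0 ± 5.11 to 25.3 ± 3.29 CPM (log2FC -0.92, adjusted p = 7.21e-08, edgeR), Egr1 from 885 ± 121 to 639.9 ± 93.9 CPM (log2FC -0.47), Egr2 by 0.73, Ier3 by 0.45, Fosl1 by 1.28 and Ier2 by 0.40 on the log2 scale. Egr1, Egr2 and Egr3 encode zinc finger factors, and Fosl1 encodes the AP-1 subunit FRA1. Fos had a log2FC of -0.20 and Fosb of 0.07, and neither passed the test. Fosl1, whose annotation shares 2767 bases with the more abundant Ccdc85b on the other strand, had 26 to 140 counts in these 2 groups and lost its call without col1-ACLP replicate 1 (adjusted p = 0.0535, edgeR). Ier2 lost its call in 6 of 21 alternatives, among them the fits without the same 4 libraries as Dusp6. There the adjusted p in edgeR was 0.146 without col1 replicate 2, 0.107 without col1 replicate 4, 0.113 without col1-ACLP replicate 1 and 0.0996 without col1-ACLP replicate 2.

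Of 7 other genes of ERK output, 4 fell and 1 rose, with a median log2FC of -0.70. The one with the lowest adjusted p was Etv5, an ETS factor gene that often follows FGF and ERK activity. It fell from 56.2 ± 5.64 CPM on col1 to 21.3 ± 2.03 CPM on col1-ACLP (log2FC -1.40, adjusted p = 2.66e-11, edgeR). Etv5 did not overlap between these groups, a separation in the lower direction found in 10.3% of all tested genes. Its relative Etv1 fell by 1.52 on the log2 scale from a low level, and Phlda1 by 0.70. Etv4 had a log2FC of -1.03 that did not pass (adjusted p = 0.204, edgeR), at 16 to 88 counts per library in these groups. Epha2 fell by 0.37 on the log2 scale, a call lost without col1 replicate 3 (adjusted p = 0.0633, edgeR) or col1-ACLP replicate 4 (0.0558). The gene that rose was Ccnd1, which encodes cyclin D1, with a log2FC of 0.22 (adjusted p = 0.00208, edgeR). On col1-ACLP+SB, Etv5 stood at 27.7 ± 3.27 CPM, and it was the 1 gene of this list to differ between the groups with ACLP, with a log2FC of 0.38 (adjusted p = 0.0425, edgeR). This last call was lost in 12 of 21 alternatives, 8 of them a single library left out: col1 replicates 1 (0.0542) and 3 (0.0558), col1-ACLP replicates 1 (0.0532), 2 (0.0602), 3 (0.116) and 4 (0.157), and col1-ACLP+SB replicates 3 (0.0992) and 4 (0.155).

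Against col1, 3 immediate early genes and 3 of the other output genes were lower on col1-ACLP+SB, and none were higher, beside 4.54% lower and 4.6% higher over all tested genes. Egr3 had a log2FC of -0.65, Etv5 of -1.02, Etv1 of -1.03 and Phlda1 of -0.52. Egr1 fell by 0.32 and Ier3 by 0.23 on the log2 scale. The call for Egr1 was lost in 6 of 21 alternatives. Among them were the fits without col1 replicate 2 (adjusted p = 0.128, edgeR), col1 replicate 4 (0.15), col1-ACLP+SB replicate 1 (0.147) or col1-ACLP+SB replicate 4 (0.135). The call for Ier3 was lost in 8 of 21 alternatives. Among them were the fits without any 1 of 6 libraries: col1 replicates 2 (0.126), 3 (0.0632) and 4 (0.129), col1-ACLP replicate 1 (0.0514), and col1-ACLP+SB replicates 1 (0.183) and 3 (0.126).

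Negative regulators outside the 3 families were counted next. Of 10 tested, Errfi1, which encodes the EGF receptor inhibitor MIG6, fell by 0.57 (adjusted p = 0.00062, edgeR) and Il17rd, which encodes the FGF antagonist SEF, fell by 0.55 (adjusted p = 5.53e-05, edgeR) on the log2 scale on col1-ACLP. The list had a median log2FC of -0.09. Against col1, the log2FC on col1-ACLP+SB was -0.45 for Errfi1 and -0.39 for Il17rd. Errfi1 lost its call there without col1 replicate 4 (adjusted p = 0.0592, edgeR). Of 5 other DUSP genes tested, Dusp8, a phosphatase for stress-activated kinases, was the 1 that changed, and it rose on col1-ACLP with a log2FC of 0.49. Dusp9 and Spry3 did not pass the filter on low counts.

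Genes of the cascade itself moved in both directions. Of 16 genes from Grb2 to Mapk3, 3 fell and 6 rose on col1-ACLP, with a median log2FC of 0.04, and with library size alone 4 fell and 4 rose. Mapk3, which encodes ERK1, fell by 0.16 on the log2 scale. Map2k1, which encodes MEK1, rose from 87.3 ± 4.91 to 119.6 ± 6.25 CPM (log2FC 0.45, adjusted p = 6.6e-07, edgeR), and Hras rose by 0.42, Nras by 0.24, Braf by 0.23, Gab1, an adaptor gene, by 0.18 and Map2k2 by 0.18 on the log2 scale. Ksr1, a scaffold of RAF, MEK and ERK, fell by 0.59. Of these, Mapk3 lost its call without col1 replicate 3 (adjusted p = 0.0803, edgeR) or col1-ACLP replicate 3 (0.0767). Gab1 lost its call in 8 of 21 alternatives, among them the fits without col1 replicates 1 (0.123) or 2 (0.125) or any 1 col1-ACLP library (0.066 to 0.0841). Map2k2 also lost its call in 8 of 21. Among them were the fits without col1 replicates 1 (0.0796), 3 (0.0819) or 4 (0.0659) or col1-ACLP replicates 1 (0.0533), 2 (0.0604) or 4 (0.0658). On col1-ACLP+SB, 2 of the 16 genes of the cascade rose and 1 fell against col1 (4.6% and 4.54% of all tested genes), and the rise of Map2k1 was 0.32. The other rise, that of Hras, lost its call without col1 replicates 3 (adjusted p = 0.104, edgeR) or 4 (0.0588) or col1-ACLP+SB replicates 1 (0.0834) or 4 (0.0751).

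Receptors and ligands upstream moved in both directions. Of 14 receptor genes, 5 fell and 4 rose on col1-ACLP. Pdgfra fell by 0.76 and Egfr, from 109 ± 2.18 to 74.7 ± 5.00 CPM, by 0.54 on the log2 scale, while Erbb3 rose by 0.81, Fgfr2 by 0.74, Met by 0.67 and Igf1r by 0.38. The annotated span of Fgfr2, at a mean of 387 counts per library, also covers more abundant genes on both strands, such as Oat (6739 counts) and Tacc2 (4529 counts), so its count is uncertain. Of 14 tested ligand genes, 5 fell and 2 rose, with a median log2FC of -0.32. Fgf10, at 1 to 29 counts per library on col1-ACLP, fell by 2.78, Hgf by 1.31, Fgf18 by 0.67 and Ereg by 0.42, and Pdgfb rose by 0.87 and Pdgfc by 1.08, all on the log2 scale. Pdgfc lost its call without col1-ACLP replicate 4 (adjusted p = 0.0565, edgeR) and Ereg without col1 replicates 3 (0.0636) or 4 (0.0764) or col1-ACLP replicates 1 (0.0666) or 2 (0.12). On col1-ACLP+SB, 5 receptor genes fell and 3 rose against col1, and 2 ligand genes fell and 1 rose (4.54% and 4.6% of all tested genes). The receptor genes that rose were Erbb3, Fgfr2 and Igf1r. Erbb3 lost this call in 10 of 21 alternatives. Among them were the fits without any 1 of 6 libraries: col1 replicates 1 (adjusted p = 0.0791, edgeR), 2 (0.0568) and 4 (0.133), and col1-ACLP+SB replicates 1 (0.101), 2 (0.0642) and 4 (0.0773). Fgfr2 lost its call in 8 of 21 alternatives. Among them were the fits without any 1 of 5 libraries: col1 replicates 2 (0.102) and 3 (0.0597), and col1-ACLP+SB replicates 2 (0.0601), 3 (0.109) and 4 (0.0546). Erbb3 was the 1 gene of these lists to differ between the groups with ACLP, lower with SB431542 by a log2FC of -0.45 (adjusted p = 0.0234, edgeR). That call was lost without col1-ACLP replicates 1 (0.0855), 3 (0.0581) or 4 (0.0641) or col1-ACLP+SB replicates 3 (0.0684) or 4 (0.0589).

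**Figure D4:**
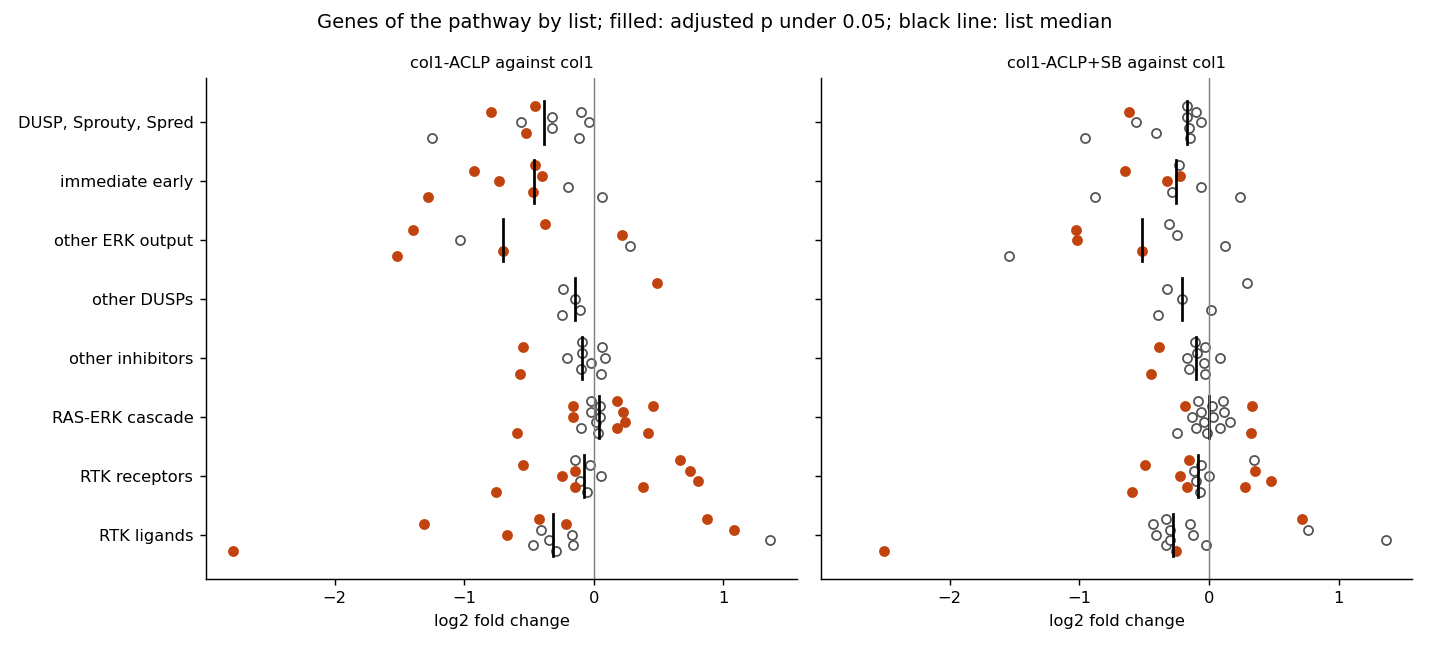
Fitted log2FC of every tested gene of the 8 lists against col1, for col1-ACLP (left) and col1-ACLP+SB (right), filled where the adjusted p of edgeR's test was under 0.05, with the median of each list as a black line. The medians of the feedback genes (-0.39), the immediate early genes (-0.46), the other output genes (-0.70), the ligands (-0.32), the other DUSP genes (-0.14), the other negative regulators (-0.09) and the receptors (-0.08) lie below 0 on col1-ACLP, and that of the cascade is 0.04.

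Within groups, the libraries also differed in a shared way. On col1, replicates 2 and 4 were above the group mean for Dusp1, Dusp6 and Spry2, as for Egr1, Egr2, Egr3, Ier2 and Fos. On col1-ACLP, replicates 3 and 4 were above replicates 1 and 2 in all of these genes, and on col1-ACLP+SB replicates 2 and 3 were above replicates 1 and 4. The other members (Dusp4, Dusp5, Spry1, Spry4 and the Spred genes) and Etv5, Ier3 and Phlda1 did not follow this order in all 3 groups. Across libraries, after the group means were taken away, Pearson's r was 0.88 between Dusp1 and Dusp5, 0.79 between Dusp6 and Spry2, and 0.71 between Dusp1 and Dusp6 (12 libraries, a description with no test, and these values share library scaling). Those are pairs with high values, and among all DUSP and Sprouty members r ran from -0.56 (Dusp4 and Spry4) to 0.88 (Dusp1 and Dusp5). It was -0.16 between Dusp4 and Dusp5 and 0.07 between Spry1 and Spry2. Between the Spred genes and the other members r ran from -0.52 (Dusp4 and Spred3) to 0.78 (Dusp4 and Spred1). The genes for this comparison were chosen after their values had been seen.

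**Figure D5:**
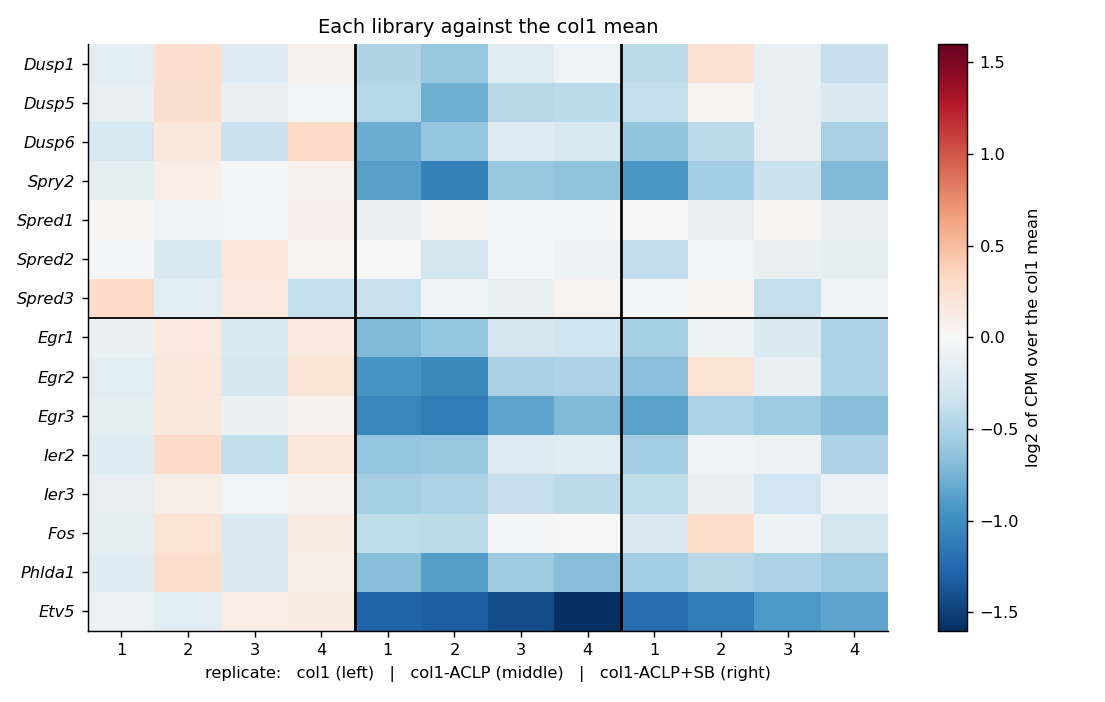
Level of 7 feedback genes and 8 other ERK-responsive genes in each of the 12 libraries, as log2 of the CPM over the col1 mean (color scale). The rows of Spry2 and Egr3 are blue in all 8 libraries with ACLP, Etv5 is lowest at -1.59, and the Spred rows stay pale.

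The genes whose levels were most like Spry2 and Dusp6 over the 12 libraries were found among 9158 genes with a mean of at least 10 CPM. For Spry2 these were Gnao1 (r = 0.98), Egr3 (0.97), Mrc2 (0.95), Igf2r (0.95) and Gas1 (0.95). For Dusp6 they were Ier2 (0.93), Egr1 (0.92), Btg2 (0.91), Jun (0.90) and Zfp36l2 (0.90). With the group means taken away, r was 0.95 for Gnao1 and 0.87 for Egr3 with Spry2, and 0.90 for Ier2 and 0.87 for Egr1 with Dusp6. Ier2, Egr1 and Jun are immediate early genes, as Dusp1 is. These values describe 12 libraries in 3 groups and carry no test.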

How the data were processed

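RNA from 12 cultures of 10T1/2 cells was sequenced by the authors as paired-end reads of poly(A) libraries and mapped with HISAT2. The paper names GRCm39 and the submitters' processing notes mm10, and the gene coordinates in the count table are those of GRCm39. The deposited values are raw counts per gene, not normalized, with gene lengths. The counting tool, its strand setting and its handling of multi-mapped reads are not given in the sources used here.

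The test was that of edgeR 4.0.16 in R 4.3.3 (filterByExpr, TMM, glmQLFit and glmQLFTest, group as the only term, all 12 libraries), with Benjamini-Hochberg adjustment over 16465 genes. Intervals are at 95%. The calls used an adjusted p of 0.05, alone and with a log2 fold change past 0.58 as in the study, which used DESeq2. TPM were computed from the counts and gene lengths. The code was tested on simulated data, and its criterion was restricted to genes of at least 10 CPM after genes at low counts had been missed. No pair of replicates was alike within sampling noise (chi-square over its degrees of freedom, 7.49 to 19.7). The common dispersion had a square root of 0.153, so counting error, which assumes independent reads, is small beside the spread between replicates for all but the lowest members. Replicate numbers did not pair the libraries (correlation of deviations from -0.037 to 0.036).

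The members and gene lists were chosen with earlier results of these data known. The text names the members, up to 6 genes per list with an adjusted p under 0.05 in any comparison in order of fold change, 8 defining genes of the pathway, and the 5 genes most like Spry2 and Dusp6. Motifs were searched in 250 bases before each canonical start (GENCODE M39). Alternatives were other size factors, filters, limma-voom (3.58.1), DESeq2 (1.42.0), pairwise fits, a replicate block and leaving out each library. Some genes of the cascade list are not reported here.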

Additional observations from a re-analysis of the deposited data

Results flagged for a closer look

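Of 30 groups of 4 libraries checked (10 members in 3 groups), 1 held a library far from the others, where chance flags about 1 in 20. Dusp5 in col1-ACLP replicate 2 had 7.35 CPM against 9.23 to 9.46 CPM in the other 3 libraries, a gap of 0.888 of the range of the group. Without this library, the log2 fold change of Dusp5 against col1 was -0.44 and passed the test (adjusted p = 0.0319, edgeR).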

How the results depend on the processing

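The number of members lower on col1-ACLP was 3 and became 1 when a log2 fold change past 0.58 was required. It was 4 with library size alone, no filter, limma-voom and the fit of only the 2 groups, 2 in DESeq2, and 2 to 4 with libraries left out. On col1-ACLP+SB against col1 it was 1, 2 with no filter on low counts, and 1 to 2 with libraries left out. The fit with a replicate block gave 3, 1 and 0 members lower in the 3 comparisons and changed no call of a member. Over 628 values of the members under 21 alternatives, 586 kept direction and call, 12 gained and 7 lost the call, and 23 changed sign, none of them a called value. Changes of sign in col1-ACLP+SB against col1-ACLP were those of Spry1 with library size alone (0.0204), limma-voom (0.0533) and the replicate block (0.0711), of Spred1 with library size alone (0.00698) and of Spred3 with limma-voom (-0.0207). With libraries left out, the ranges in that comparison were -0.0711 to 0.134 for Dusp6, -0.14 to 0.17 for Spry1, -0.40 to 0.58 for Spry4, -0.0518 to 0.00435 for Spred1 and -0.0669 to 0.0928 for Spred3. Against col1 they were -0.22 to 0.0103 for Spred3 in the group with ACLP alone, and with SB -0.298 to 0.0514 for Dusp4 and -0.212 to 0.0184 for Spred3. The cause was not tested. With library size alone, 1865 genes were lower and 1159 higher on col1-ACLP (1385 and 1568 with TMM), and 109 and 157 in col1-ACLP+SB against col1-ACLP (149 and 94 with TMM). At 5 to 36 counts, Spry4 limits what can be said of it.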
